A study of Mus musculus with 4 samples.

Results

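Among the binding sites of CTCF in mouse calf muscle, 3311 peaks were unusually narrow: their start and end lay 150 bp or less apart. They were selected by width alone from the 41000 autosomal peaks that the study's conservative list holds, of which they made up 8.08%, and were compared with the 26756 autosomal peaks of 250 to 350 bp. The narrow peaks measured 85 to 150 bp, with a median of 121 bp, against a median of 295 bp over all autosomal peaks. These widths follow from the selection and are no check of it. Chromosome X, with 106 peaks of 150 bp or less among 1163, was left out by the selection rule.

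CTCF is a DNA-binding protein with an array of zinc fingers that reads a long sequence motif of fixed orientation. Bound CTCF halts cohesin as it extrudes chromatin, so that many of its sites mark the ends of loops and the borders of domains, and it also acts at enhancer-blocking insulators and at promoters. Many of its sites are occupied in most tissues, and in rodents copies of short interspersed repeats are known to have carried CTCF motifs to new places in the genome.

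The study measured CTCF by ChIP-seq, in which DNA fragments bound by the protein are recovered with an antibody and sequenced, in gastrocnemius, the large calf muscle. All tissue came from female B6CASTF1/J mice, first-generation hybrids of C57BL/6J and CAST/EiJ, at 2 months of age. The 4 libraries were 2 technical replicates of each of 2 pools, pool E and pool F, each made from 2 tissue samples. There was no treated group, and peaks carry no expression values by which the tissue could be checked. Because the pools were already merged in the conservative list, its peaks are not replicates, and the tests given here cover counting error only. Peak strength is the value that the authors deposited for each peak, whose scale is not stated, and the files used here hold no read counts, so the depth is unknown.

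The strongest narrow peaks with a CTCF motif are shown first, whole, because they carry the most signal that a peak of this width reached; the sequences shown are the strongest among the peaks that the processing rule allows. Coordinates and letters are those of the GRCm38 (mm10) reference, so they do not show CAST/EiJ alleles, and the minus strand is printed as its reverse complement. Capitals mark the match to the 14 positions of the CTCF core consensus. The first 3 matched with 2 mismatches, and the Cabp4 site matched at every position.
Slc32a1 intron, chr2:158613672-158613817, minus strand: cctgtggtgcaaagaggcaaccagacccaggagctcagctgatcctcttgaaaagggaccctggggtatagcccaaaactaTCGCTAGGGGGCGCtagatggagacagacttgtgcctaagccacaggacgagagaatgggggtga
AC138790.3 start, chr19:43528306-43528451, minus strand: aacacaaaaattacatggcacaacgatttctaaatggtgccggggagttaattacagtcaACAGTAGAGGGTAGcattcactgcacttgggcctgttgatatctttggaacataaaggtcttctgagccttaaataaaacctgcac
Nop58 intron, chr1:59701891-59702022, plus strand: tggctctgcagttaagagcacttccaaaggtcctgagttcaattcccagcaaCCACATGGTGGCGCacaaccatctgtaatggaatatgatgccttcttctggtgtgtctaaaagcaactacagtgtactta
Cabp4 coding exon, chr19:4136109-4136232, minus strand: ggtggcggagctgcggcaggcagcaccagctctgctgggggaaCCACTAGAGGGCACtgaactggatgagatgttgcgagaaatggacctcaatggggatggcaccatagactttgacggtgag

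These 4 peaks had strengths of 210.1, 209.5, 204.5 and 199.4. The 4 strongest without such a match, allowing 2 mismatches within 50 bp of the summit, are shown for contrast and hold no capitals.
Intergenic, nearest coding gene Dusp10, chr1:183854336-183854485, plus strand: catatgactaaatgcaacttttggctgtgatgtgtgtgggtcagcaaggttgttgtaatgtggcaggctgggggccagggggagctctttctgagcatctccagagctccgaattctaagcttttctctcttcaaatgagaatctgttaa
Elk3 intron, chr10:93273497-93273628, plus strand: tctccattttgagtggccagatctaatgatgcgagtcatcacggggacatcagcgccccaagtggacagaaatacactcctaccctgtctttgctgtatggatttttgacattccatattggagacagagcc
Dst intron, chr1:34093806-34093942, plus strand: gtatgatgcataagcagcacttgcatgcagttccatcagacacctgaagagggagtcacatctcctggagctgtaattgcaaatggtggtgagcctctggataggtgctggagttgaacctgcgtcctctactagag
Ltbp1 intron, chr17:75388546-75388631, plus strand: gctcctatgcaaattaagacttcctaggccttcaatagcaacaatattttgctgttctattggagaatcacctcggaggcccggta

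Their strengths were 206.9, 192.8, 191.4 and 185.8, and their best matches had 4, 4, 3 and 5 mismatches. The peaks with and without a match thus overlapped in strength at the top of the class. The minimum width in the list was 85 bp, and 3 of the strongest peaks at that minimum follow, with strengths of 166.7, 148.7 and 148.1.
Fermt2 intron, 9630050E16Rik start, chr14:45492860-45492944, plus strand: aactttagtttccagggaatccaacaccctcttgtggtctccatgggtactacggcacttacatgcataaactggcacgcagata
Intergenic, nearest coding gene Itpr3, chr17:27047890-27047974, plus strand: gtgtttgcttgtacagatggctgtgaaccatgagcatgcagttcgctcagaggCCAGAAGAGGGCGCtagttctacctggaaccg
Atl3 intron, chr19:7523390-7523474, minus strand: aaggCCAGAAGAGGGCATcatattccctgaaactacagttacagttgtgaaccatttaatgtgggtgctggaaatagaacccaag

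The first of these had no match. The other two held the same run of 12 letters, the run found most often in the narrow peaks, which is described further on. The last 2 sequences reach 50 bp to either side of the summits of the strongest peaks of 250 to 350 bp, at strengths of 684.0 and 672.5, more than 3 times those of the strongest narrow peaks.
Intergenic, nearest coding gene Unc5b, chr10:60835104-60835204, plus strand: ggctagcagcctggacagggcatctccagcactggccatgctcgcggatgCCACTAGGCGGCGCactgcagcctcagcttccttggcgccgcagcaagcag
Akna intron, chr4:63368724-63368824, plus strand: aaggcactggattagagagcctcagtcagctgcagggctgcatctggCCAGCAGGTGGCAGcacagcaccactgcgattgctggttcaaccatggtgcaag

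Narrow peaks occupied a band of low strength just above the weakest peaks of the list. Strength comes from the same peak calls as the width that selected them, so these values are a description with no test. The narrow peaks ran from 52.1 to 210.1, apart from a single one at 18.7, with quartiles of 120.4, 134.0 and 147.4, whereas the list as a whole had a median of 247.0. The peaks of 250 to 350 bp had quartiles of 92.0, 359.6 and 476.8, and they were a mixture. Of these, 10743 had a width of exactly 340 bp, 26.2% of all autosomal peaks, with a median strength of 83.5. The other 16013 had a median of 454.6. The narrow class therefore lay between the components of the class it was compared with.

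**Figure D1:**
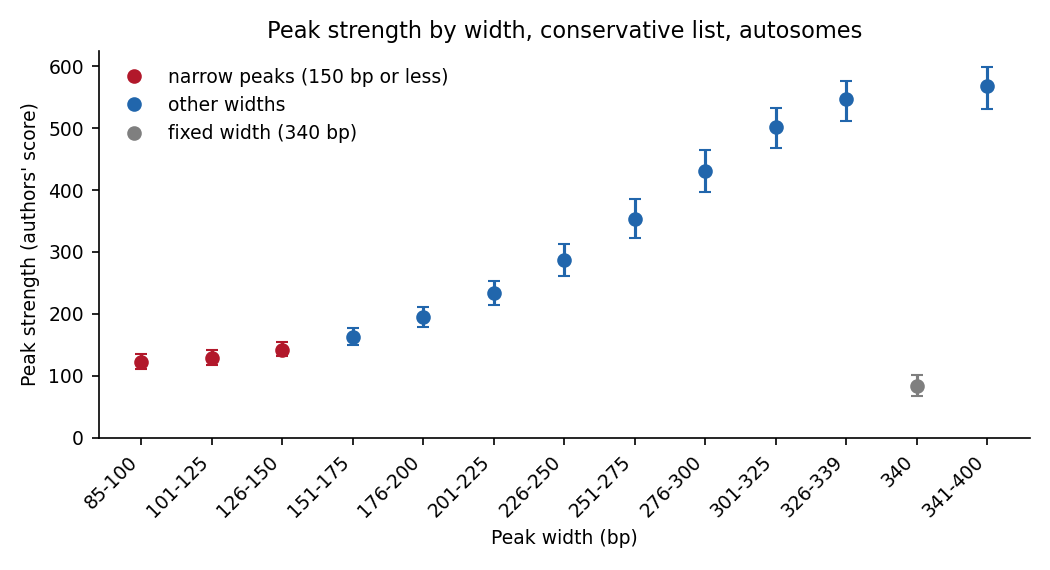
Strength of autosomal peaks (vertical axis, the authors' score) by peak width (horizontal axis, bp), as the median (points) with the lower and upper quartiles (bars). The narrow bands have medians of 122.5, 129.1 and 142.6, strength rises with width to a median of 547.5 at 326 to 339 bp, and peaks of exactly 340 bp drop to 83.5.

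Outside the fixed width of 340 bp, width and strength rose together over 30257 peaks, with a Spearman correlation of 0.943 and a Pearson correlation of 0.882. These correlations are across peaks of the same pooled libraries, which are not independent replicates. Within the narrow class the Spearman correlation was 0.454. No step in strength stood at the 150 bp limit: the 633 narrow peaks of 141 to 150 bp had a median of 147.3, and the 736 peaks of 151 to 160 bp, just outside, had a median of 154.7. At a strength of 80 to 100, 3.55% of peaks were narrow and 95.8% had the fixed width. At 120 to 140, 57.7% were narrow and 32.0% had the fixed width, and at 160 to 180 the shares were 19.8% and 1.04%. No peak above a strength of 250 was narrow.

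**Figure D2:**
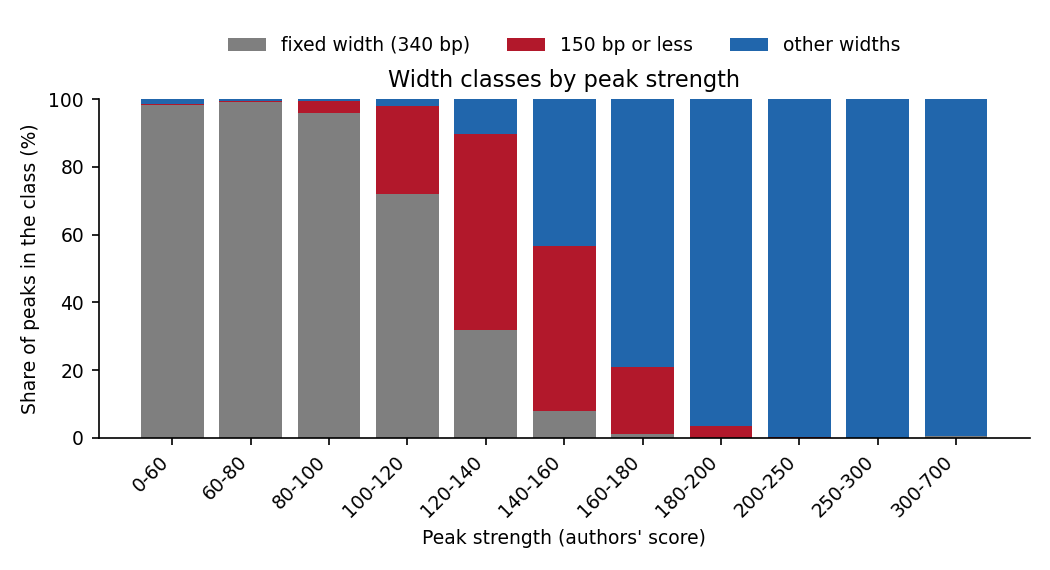
Share of autosomal peaks (vertical axis, %) in each width class by peak strength (horizontal axis, the authors' score), stacked to the whole. Grey marks the fixed width of 340 bp, red the narrow class and blue other widths; narrow peaks reach 57.7% at a strength of 120 to 140 and 48.8% at 140 to 160.

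The width of the same site differed between the pools. The ranked list behind the conservative one gives each peak's width and strength in 2 inputs, which matched the peaks called in pool E and in pool F. In pool E, the narrow peaks had a median width of 177 bp, with quartiles of 161 and 189 bp. In pool F, 3310 of the 3311 had a width of exactly 304 bp, which was the fixed width of that input. Strength in pool E exceeded strength in pool F by a median of 1.33 on the log2 scale (SD 0.33 over peaks), against 1.30 for the peaks of 340 bp and 0.72 for the other peaks of 250 to 350 bp. The median over all autosomal peaks was 1.03, and whether the 2 inputs share a scale is not stated. The irreproducible discovery rate, the share of peaks at a given rank that are expected not to recur between the pools, was 0.01 or less for 3289 narrow peaks (99.3%). It was that low for 84.5% of the peaks of 340 bp and for 99.1% of the others of 250 to 350 bp. Narrow peaks were thus weak for the list, and passed the stricter limit about as often as the much stronger ones.

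In the list called from pool E alone, 3304 narrow peaks (99.8%) had a summit within 50 bp of their own, and 444 of those partners were themselves 150 bp wide or less. In the pool F list 2583 (78.0%) had such a partner, and each of those was 304 bp wide. Of the peaks of 340 bp, 95.4% had a partner by this rule in pool E and 27.3% in pool F. For the other peaks of 250 to 350 bp these shares were 94.0% and 99.55%. With a reciprocal overlap of 50% as the criterion, 95.4% of narrow peaks had a partner in pool E and 0 of 3311 in pool F. A peak of 150 bp or less cannot cover 50% of one 304 bp wide, so the 0 followed from the widths. With an overlap of 1 bp, 2604 (78.65%) had a partner in pool F. The combined list, called from both pools together, held 3309 narrow peaks at a reciprocal overlap of 50%, with the same median width of 121 bp. The width limit picked out other sites in the single pools. Of 3961 autosomal peaks of 150 bp or less in the pool F list, 3955 had a summit of the conservative list within 50 bp, yet none of these was narrow there: their width was 250 bp and their strength 316.9 at the median. Of 2973 narrow peaks of pool E with such a partner, 14.9% were narrow in the conservative list and 85.1% had the fixed width of 340 bp. The narrowness of a site thus differed from list to list.

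Narrow peaks lay in introns more often and between genes less often than the peaks of 250 to 350 bp. Promoter summits, within 1000 bp of an annotated gene start, made up 467 of 3311 narrow peaks (14.1%) against 13.97%, beside 14.2% of all autosomal peaks, a difference of 0.13 percentage points with a 95% Newcombe interval of -1.09 to 1.43 (Fisher's exact test, two-sided, Benjamini-Hochberg adjusted p over 8 tests = 0.951). Other exonic summits made up 6.98% against 6.68%, beside 6.87% of all peaks (Fisher's exact test, adjusted p = 0.812). Of the 231 exonic narrow peaks, 88 had the summit in coding sequence, 57 in an untranslated region and 86 in exons of neither kind. Among the 2817 exonic peaks of the autosomal list these counts were 898, 980 and 939. Intronic summits made up 47.9% against 44.4%, beside 44.4% of all peaks, a difference of 3.56 points (1.76 to 5.36, Fisher's exact test, adjusted p = 2.2e-04) that had the same sign on 16 of 19 autosomes. Intergenic summits made up 31.0% against 35.0%, beside 34.5% of all peaks, a difference of -4.00 points (-5.65 to -2.30, Fisher's exact test, adjusted p = 1.3e-05, 18 of 19 autosomes).

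Both differences depended on which peaks of 250 to 350 bp stood in the comparison. Against the peaks of exactly 340 bp, the intronic difference was 0.68 points and the intergenic one 0.58 points (Fisher's exact test, adjusted p = 0.532 for both). With the peaks of 250 to 350 bp weighted to the strengths of the narrow class, they were -1.10 points (95% interval -4.48 to 2.28) and 0.46 points (-2.65 to 3.57), so that both intervals held 0. Within the strength quartiles of the narrow class, 756 of 764 peaks of 250 to 350 bp had exactly 340 bp. The weighting thus drew mostly on the same peaks, and strength and fixed width cannot be told apart there. Peaks that were neither narrow nor of the fixed width more often had promoter summits at strengths of 120 to 180. At 120 to 140 the shares were 21.4% (Wilson interval 16.6 to 27.3%) against 12.8% (11.1 to 14.8%) of narrow peaks. At 140 to 160 they were 18.3% (15.8 to 21.15%) against 11.3% (9.41 to 13.6%). At 160 to 180 they were 15.5% against 12.75%, and at 180 to 200 the order turned, to 13.6% against 22.2% of 45 narrow peaks. These shares were not tested.

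A CTCF motif, defined as a match to the core consensus with at most 2 mismatches and its centre within 50 bp of the summit, was present at 2313 narrow peaks (69.9%) and at 78.8% of the peaks of 250 to 350 bp, beside 77.6% of all autosomal peaks. The difference was -8.96 percentage points (-10.6 to -7.34, Fisher's exact test, adjusted p = 7.4e-29) and had the same sign on 18 of 19 autosomes. Of the windows placed 2000 bp to either side of the summit, 3.13% held a match for narrow peaks and 3.21% for the compared peaks. The components again differed. The motif share was 65.4% at the peaks of 340 bp, which put the narrow peaks 4.43 points higher (2.61 to 6.22, Fisher's exact test, adjusted p = 8.6e-06), and 87.8% at the others of 250 to 350 bp. After weighting to the narrow peaks' strengths, with the compared peaks again mostly those of 340 bp, the difference was 0.98 points (95% interval -2.14 to 4.09). The size also moved with the motif definition, to -15.25 points with at most 1 mismatch and -2.03 with at most 3. It moved with the list too, to -4.34 in the combined list and -16.50 in the pool E list. In the pool F list the sign turned, to 8.35 points. Fixed widths differ between those lists.

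The match was also less exact than at the peaks of 250 to 350 bp as a whole. Of the narrow peaks, 166 (5.01%) matched the consensus at every position, 909 had 1 mismatch and 1238 had 2. An exact match was found at 14.3% of the peaks of 250 to 350 bp, which split into 3.10% at 340 bp and 21.9% at the others. The median distance from motif centre to summit was 7.5 bp at narrow peaks, 8.5 bp at 340 bp peaks and 5.5 bp at the others, and 63.1%, 55.5% and 74.8% of motifs lay within 10 bp. Within the narrow class the motif share was 67.7% at 85 to 100 bp, 71.1% above that and up to 125 bp, and 70.1% at 126 to 150 bp. The motif lay wholly inside the peak at 2278 of 2313 narrow peaks, and 50.6% of motifs were on the plus strand.

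The motif share varied with position in the genome. It was 47.1% at narrow promoter peaks (Wilson interval 42.6 to 51.6%), 61.5% in exons, 73.4% in introns and 76.7% between genes. The same order held in each of the other classes, from 37.3% at promoters to 73.5% between genes at 340 bp, and from 72.8% to 90.3% at the other widths of 250 to 350 bp. At each of these 4 locations the narrow class lay between them. Where the summit was in masked repeats, 85.7% of narrow peaks had the motif, against 64.3% outside them.

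Summits in masked repeats, sequence that the reference prints in lower case, made up 858 narrow peaks (25.9%) against 18.9% of the peaks of 250 to 350 bp, beside 19.8% of all peaks. The difference was 7.06 percentage points (5.52 to 8.65, Fisher's exact test, adjusted p = 3.5e-20) and was positive on 19 of 19 autosomes. In the combined list it was 3.39 points, in the pool E list 17.48 points and in the pool F list -8.72 points. Its sign turned against the peaks of 340 bp, which also made up most of the compared peaks at like strength. The peaks of 340 bp had 33.4% in masked repeats, so that the narrow peaks stood at -7.49 points against them (-9.20 to -5.73, Fisher's exact test, adjusted p = 2.0e-15), and the other widths had 9.09%. Weighted to the narrow peaks' strengths, the difference was -6.24 points (95% interval -9.34 to -3.15). Between strengths of 120.4 and 147.4, the quartiles of the narrow class, 27.2% of 1655 narrow peaks lay in masked repeats against 34.4% of 764 peaks of 250 to 350 bp, a difference of -7.23 points (-11.3 to -3.28, Fisher's exact test, adjusted p = 0.00256). Of those 764 peaks, 756 had the fixed width. In the same range the motif shares were 69.9% and 72.9%, a difference of -3.06 points (-6.84 to 0.86, Fisher's exact test, adjusted p = 0.527). Peaks that were neither narrow nor of the fixed width gave masked shares close to those of narrow peaks at like strength: 26.5% (Wilson interval 23.6 to 29.7%) against 27.0% (24.2 to 30.0%) at 140 to 160, and 24.7% against 24.8% at 160 to 180. The lower masked share was therefore seen against the fixed-width peaks, and peaks just wider than the limit were not tested against the narrow ones.

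**Figure D3:**
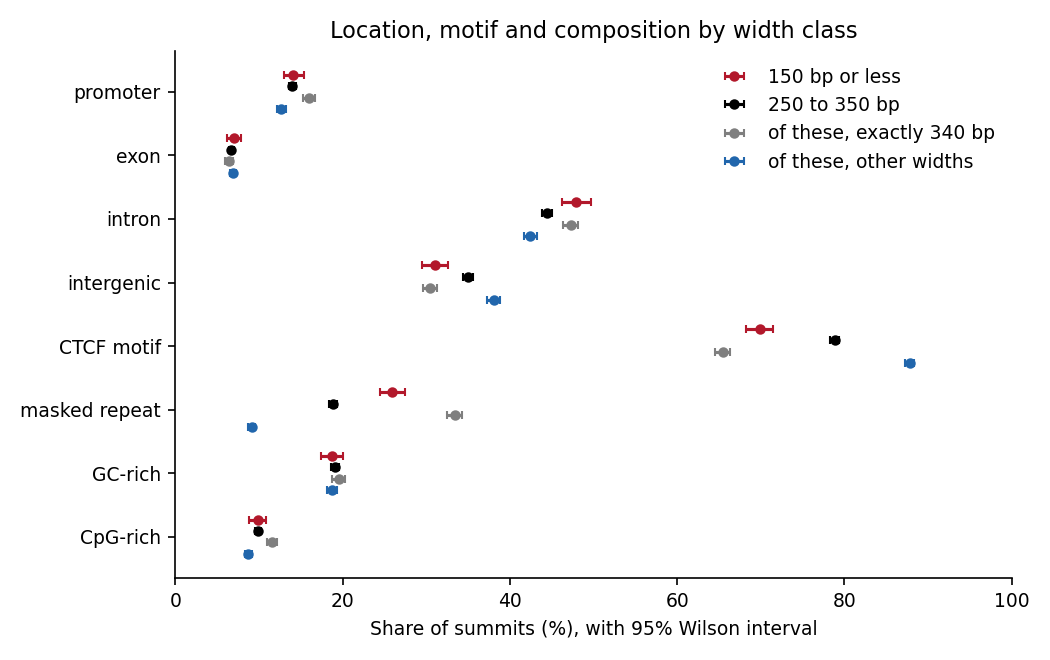
Share of peak summits (horizontal axis, %, points with 95% Wilson intervals) by location, motif and base composition for narrow peaks (red), peaks of 250 to 350 bp (black), and that class split into exactly 340 bp (grey) and other widths (blue). For the CTCF motif and for masked repeats the narrow class, at 69.9% and 25.9%, lies between the grey and blue components.

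**Figure D4:**
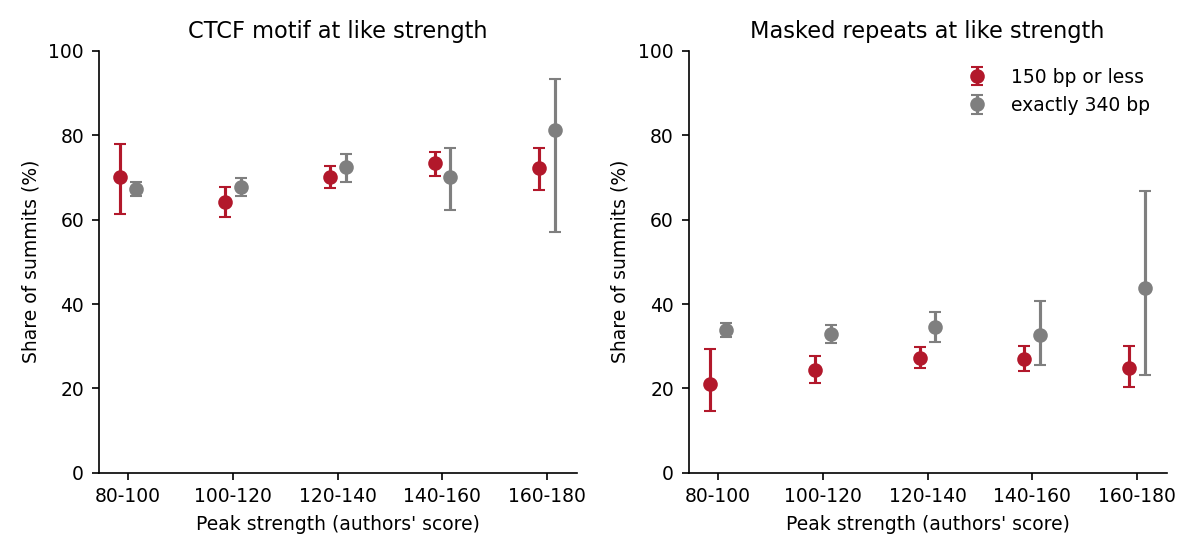
Share of summits (vertical axis, %, with 95% Wilson intervals) with a CTCF motif (left) and in masked repeats (right) by peak strength (horizontal axis, the authors' score), for narrow peaks (red) and peaks of exactly 340 bp (grey). The intervals of the motif shares overlap at each strength shown, whereas at 120 to 140 the masked share is 27.2% of narrow peaks and 34.5% of 340 bp peaks.

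Base composition gave no difference past the threshold in the main window. The window that reached 150 bp to either side of the summit had a median GC content of 47.2% at narrow peaks and 47.8% at the peaks of 250 to 350 bp. Windows with at least 55% GC made up 18.7% against 19.04%, beside 19.3% of all peaks, a difference of -0.31 points (-1.69 to 1.13, Fisher's exact test, adjusted p = 0.897). Windows rich in CpG, with at least 50% GC and an observed to expected CpG ratio of at least 0.6, made up 9.82% against 9.87%, beside 9.93% of all peaks, a difference of -0.06 points (-1.09 to 1.06, Fisher's exact test, adjusted p = 0.951). In the window that reached only 50 bp to either side, the CpG-rich difference was -2.37 points (Fisher's exact test, adjusted p = 1.8e-04).

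One run of letters recurred among the narrow peaks. It was singled out after the values were seen, so its counts are a description with no test. Of the 2313 CTCF motifs at narrow peaks, 500 (21.6%, Wilson interval 20.0 to 23.3%) began with the 12 bases below, which covers 15.1% of all narrow peaks. The 3 strongest narrow peaks with it follow the run itself, with strengths of 190.1, 186.9 and 182.4. The whole match, of 14 bases, is in capitals.
Recurring 12 bases: CCAGAAGAGGGC
Dennd4a intron, chr9:64862830-64862978, minus strand: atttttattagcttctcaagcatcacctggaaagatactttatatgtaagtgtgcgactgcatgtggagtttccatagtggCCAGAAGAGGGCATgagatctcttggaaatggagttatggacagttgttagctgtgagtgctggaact
Intergenic, nearest coding gene Spats2, chr15:99113843-99113961, minus strand: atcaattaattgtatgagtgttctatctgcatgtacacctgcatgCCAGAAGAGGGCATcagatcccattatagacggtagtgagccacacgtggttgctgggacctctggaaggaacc
Mkln1 intron, chr6:31412645-31412792, minus strand: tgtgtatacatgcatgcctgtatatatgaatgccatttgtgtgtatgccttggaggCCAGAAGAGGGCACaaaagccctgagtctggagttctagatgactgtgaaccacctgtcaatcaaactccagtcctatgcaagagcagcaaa

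The run lay mostly in masked repeats. At narrow peaks, 459 of the 500 (91.8%) had the summit in masked sequence, against 15.2% of the 1813 other motifs, and it supplied 62.5% of the 735 motifs in masked sequence. The Dennd4a summit shown was one of those outside it. The kind of repeat was not analysed here. The 5 commonest 14-base sites at narrow peaks all began with this run: CCAGAAGAGGGCAT at 197 peaks, CCAGAAGAGGGCAC at 109, CCAGAAGAGGGCGC at 76, CCAGAAGAGGGCGT at 49 and CCAGAAGAGGGCAG at 36. At peaks of 151 to 175 bp, just wider than the limit, the run made up 20.9% of motifs (Wilson interval 18.85 to 23.1%), much as at narrow peaks. At the 340 bp peaks the run made up 30.5% of motifs, and at the other widths of 250 to 350 bp 4.47%. There the commonest site was also one of the run, CCAGAAGAGGGCAT with 197 peaks. The next place was a tie at 174 peaks between CCAGAAGAGGGCAC, again of the run and 95.4% masked, and CCACCAGGGGGCAG, 2.87% masked. The recurring run made up 13.96% of motifs over all autosomal peaks. At narrow peaks its strength was much like that of the other motifs, with medians of 136.7 and 134.5, and it lay in introns at 55.6% and at promoters at 4.20% of peaks.

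Between strengths of 120.4 and 147.4 the run was present at 261 of 1655 narrow peaks (15.8%, Wilson interval 14.1 to 17.6%) and at 157 of 764 peaks of 250 to 350 bp (20.5%, 17.8 to 23.6%). Masked summits without it made up 12.5% and 15.6%. Position by position, the narrow class departed from the consensus most often at position 5, counted from the 5′ end, where 59.9% of its motifs had an accepted base, and next at position 14, with 75.0%. At 340 bp the 2 values were 51.7% and 69.3%, and at the other widths 79.4% and 86.8%. The recurring run holds A at position 5, where the consensus accepts only C or T. All its motifs therefore count as departures there: 500 at narrow peaks, 2143 at 340 bp and 629 at the other widths. The values at position 5 thus partly restate how often the run occurred.

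**Figure D5:**
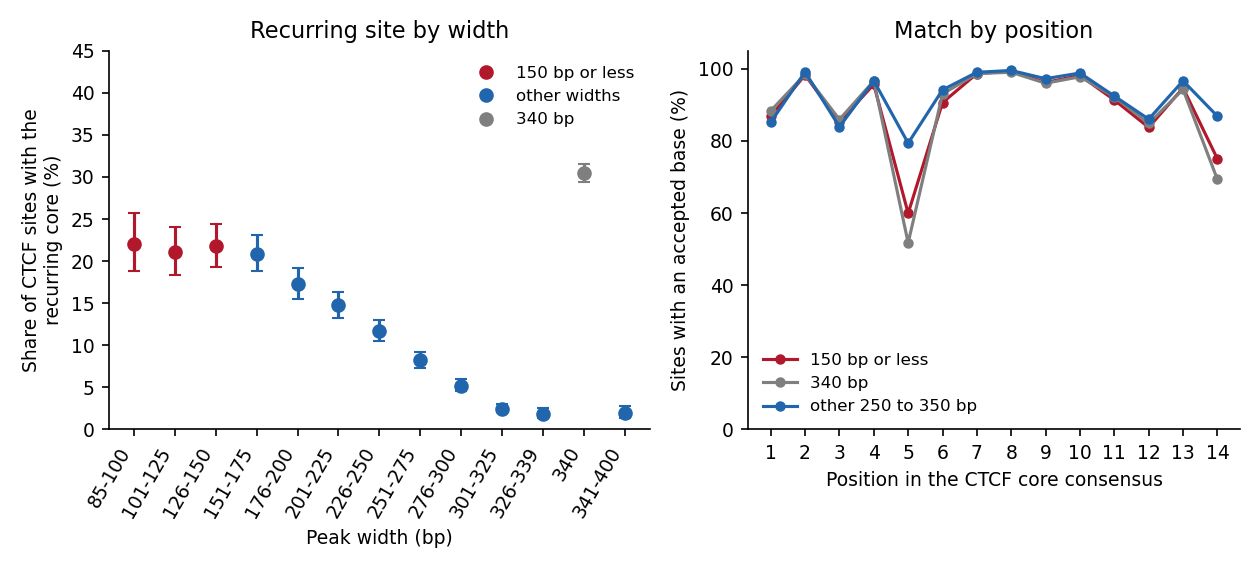
Left, share of CTCF motifs that begin with the recurring 12 bases (vertical axis, %, with 95% Wilson intervals) by peak width (horizontal axis, bp). Red marks narrow peaks, grey the fixed width and blue other widths. The share is 22.1%, 21.1% and 21.8% in the narrow bands and 20.9% at 151 to 175 bp. It is 30.5% at 340 bp and 1.82% at 326 to 339 bp. Right, share of motifs with an accepted base (vertical axis, %) at each position of the core consensus (horizontal axis), with narrow peaks at 59.9% at position 5. Motifs that begin with the recurring 12 bases have no accepted base at position 5.

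The 998 narrow peaks without a motif lay at promoters in 24.7% of cases, against 9.51% of the 2313 with one. They lay in masked repeats in 12.3% of cases against 31.8%, with a median GC content of 50.5% against 46.2%. Their median strength was 131.3 against 135.0, and these splits were not among the 8 tests. The promoter and repeat splits were not particular to narrow peaks. Over all autosomal peaks the motif share was 56.25% at promoters and 83.0% between genes. It was 87.1% in masked repeats and 75.3% outside them. Of the 998 narrow peaks without a motif, 731 had a best match with 3 mismatches. A motif centred between 50 and 100 bp from the summit was found at 44 of them. The compared wider peaks gained matches too. Allowing 3 mismatches raised the motif share from 69.86% to 91.94% at narrow peaks, and from 78.82% to 93.96% at the compared ones. Reaching out to 100 bp gave 71.19% and 80.02%. How often a match with 3 mismatches arises by chance was not measured. The GC box GGGCGG, bound by Sp-family factors, was searched on both strands within 50 bp of the summit. It was present at 10.7% of the narrow peaks without a motif and at 3.59% of those with a motif. Over all narrow peaks its share was 5.74%, beside 5.90% of all autosomal windows.

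Other short promoter elements, searched in the same windows, were rare. The ETS site CCGGAAG was present at 0.634% of narrow peaks and 0.929% of all autosomal peaks, and the YY1 site ATGGCGG at 0.755% and 0.732%. The ZNF143 site ACTACAANT was present at 9 narrow peaks (0.272%, beside 0.334% of all), and the NRF1 half-palindrome GCGCATGCG at 2 (0.0604%, beside 0.0878%). The TATA box TATAAA was present at 3.81% of narrow peaks and 3.65% of all. A match is a description of the letters only, and these motifs do not contain one another.

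The summit was not always central in a narrow peak. It lay nearer to an edge than to the centre of the peak at 285 narrow peaks (8.61%), 203 of which measured 85 to 100 bp, against 3 of 26756 peaks of 250 to 350 bp. The nearest other summit was a median of 11087 bp away, against 11088 bp for 340 bp peaks and 8368 bp for the other widths, and 184 narrow peaks (5.56%) had one within 1000 bp, beside 6.99% of all autosomal peaks. The median distance to a protein-coding start was 26414 bp, against 21608 bp for the peaks of 250 to 350 bp. Another peak was overlapped by 6 narrow peaks (0.18%), beside 0.83% of all autosomal peaks, which are wider. Narrow peaks were spread over the autosomes, from 7.11% of the peaks of chromosome 19 to 9.99% of those of chromosome 17, or from 1.02 per Mb on chromosome 3 to 2.03 on chromosome 17.

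The strongest narrow peak, at 210.1, lay in an intron of Slc32a1, which encodes the vesicular transporter of inhibitory amino acids, 2967 bp downstream of its start. It was 200 bp wide with a strength of 147.0 in pool E and 304 bp wide with a strength of 60.2 in pool F. The next, at 209.5, lay 74 bp downstream of the start of AC138790.3 and 3781 bp upstream of Got1, a cytosolic aspartate aminotransferase, with strengths of 137.3 and 67.4 in the pools. The third, at 206.9, was 158880 bp from Dusp10, a MAP kinase phosphatase, had no motif, and measured 154.9 in pool E and 56.4 in pool F. Each of the 10 strongest narrow peaks had a higher score in pool E than in pool F. Scores were higher in pool E for the list at large, with a median log2 ratio of 1.03 over all autosomal peaks.

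The fourth, at 204.5, was in masked sequence in an intron of Nop58, a core protein of box C/D small nucleolar ribonucleoproteins. The fifth, at 204.0, lay on chromosome 18 near Gm23882, and the seventh, at 197.2, between genes on chromosome 13, with Ipo11, a nuclear import receptor, as the nearest coding gene. The sixth, at 199.4, sat in coding sequence of Cabp4, a calcium-binding protein of photoreceptor synapses, with an exact consensus match 4.5 bp from the summit. Its strengths were 124.5 in pool E and 75.8 in pool F. Exonic peaks at 193.6 in Sorcs2, a sortilin-family receptor, and at 190.5 in Anks1 had best matches of 3 and 4 mismatches. Among intronic peaks, the one in Elk3, an ETS-family repressor, reached 192.8, and the third strongest intergenic one, on chromosome 7 with Art2b as the nearest coding gene, reached 189.9.

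Near protein-coding starts the strongest narrow peaks reached 195.3 at Dtx2, a ubiquitin ligase of the Deltex family, 275 bp downstream of its start, and 194.5 at Gm12216. Iba57, needed to assemble mitochondrial iron-sulfur clusters, had one at 193.4, 2 bp from its start. Abcc10, an ABC transporter, had one at 190.6, Mpped2, a metallophosphoesterase, one at 188.9, and Sp4, a zinc finger transcription factor, one at 183.6. Manea, a Golgi mannosidase, Pgrmc2, a membrane-bound haem-binding protein, Zcchc9 and Ascl4, a basic helix-loop-helix factor, followed at 182.5, 180.1, 179.7 and 178.5. Of these 10 promoter peaks, those at Dtx2, Abcc10 and Pgrmc2 had a motif, with 2, 2 and 1 mismatches.

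Among peaks at the 85 bp minimum, the strongest was 20 bp upstream of Mrps28, a protein of the mitochondrial ribosome, at 175.7, with its summit on the last base of the peak. The next lay in an intron of Fermt2, an adaptor of integrin adhesions, at 166.7. Peaks near Itpr3, a calcium channel of the endoplasmic reticulum, in Atl3, which shapes that organelle, and near Cldnd1 followed at 148.7, 148.1 and 146.2. The 117 peaks of exactly 85 bp had the minimum that the list reached, and 340 bp is 4 times that width.

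Over all annotated autosomal gene names, 1379 of 51121 (2.70%) had a narrow summit within 5000 bp of the start, and 803 of 20779 protein-coding genes did (3.86%). Among skeletal muscle contractile and metabolic genes the count was 2 of 54, namely Tpm1 (strength 134.2) and Tpm2 (125.4), the tropomyosins of the thin filament. Among muscle transcription factors and satellite cell genes it was 1 of 30, the laminin receptor subunit gene Itga7, with a peak at 173.4, 1780 bp downstream of its start. Core circadian clock genes had 3 of 23 (13.04%, Wilson interval 4.54 to 32.1%): Nfil3, a repressor of D-box genes, at 135.4, the nuclear receptor Rora at 133.1 and the repressor Cry1 at 112.9. Imprinted genes had 5 of 58, led by Ddc at 144.0 and the noncoding RNA gene Meg3 at 141.6. Of the 39 Hox genes only Hoxa9 had one, 85 bp wide at a strength of 103.2.

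Clustered protocadherins, cell-surface proteins whose promoters are chosen with the help of CTCF, had 14 of 57 (24.6%, Wilson interval 15.2 to 37.1%), the highest share among the lists. These lay in the beta and gamma clusters on chromosome 18, with strengths from 91.1 near Pcdhga4 to 135.8 at Pcdhga3. The genes are packed so closely that some shared a peak, so they are not independent counts. Olfactory receptor genes had 2 of 1100 (0.182%), the stronger at Olfr156 with 151.6. Markers of other cells of the tissue gave small counts, beside 3.86% of protein-coding genes. Fibroblast, progenitor and tendon markers had 0 of 21. Endothelial and mural cell markers had 2 of 24 (8.33%), with Sox18 at 147.8. Immune cell markers had 1 of 24 (4.17%), with Cd68 at 132.9, though that peak lay nearer to the start of Mpdu1. Neuronal and Schwann cell markers had 2 of 22 (9.09%), with Pmp22 at 176.3. Counts this small leave wide intervals, and no list was tested against the others.

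The 5 strongest peaks of 250 to 350 bp, given for scale, lay at strengths of 660.3 to 684.0, the first 3573 bp upstream of Unc5b and the next in an intron of Akna. At the other end, the weakest narrow peak, on chromosome 2 at 18.7, was chosen for mention after its value was seen. It stood apart from the class: its inputs had strengths of 313.6 in pool E and 224.3 in pool F and widths of 421 and 231 bp, and it was the single narrow peak not 304 bp wide in pool F. Its nearest other summit was 199 bp away, and the next weakest narrow peak had a strength of 52.1.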

How the data were processed

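CTCF ChIP-seq peaks were measured in gastrocnemius of 2 pools, with 2 technical replicates each. The deposited sample notes place the lists on mm10 and derive each from alignments that merge a pool's technical replicates, with 1 control alignment; the aligner and the peak caller are not given in the sources used here. The authors deposited for each peak a strength, a score with no stated scale, and in the ranked list the −log10 of the irreproducible discovery rate, limited to 0.05 in the thresholded lists. No counts were used, so depth is unknown.

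Peaks were read from the conservative list, autosomes only. Summits were placed as promoter (within 1000 bp of a gene start), exon, intron or intergenic, in that order, with GENCODE M21 genes on GRCm38. The CTCF core consensus (14 positions, at most 2 mismatches, both strands) was searched with its centre within 50 bp of the summit. Masking, GC content and CpG ratio came from the reference, the last 2 within 150 bp of the summit. Width classes were compared by Fisher's exact test with Newcombe intervals and Benjamini-Hochberg adjustment over 8 tests (threshold 0.05), and, weighted to 10 strength classes, by the difference with its interval (Python 3.11.15, pandas 2.3.3, scipy 1.17.1, statsmodels 0.14.6). The scripts were tested on simulated data. Strength, neighbours and partners come from the same calls as width and were not tested.

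The peaks named are the 10 strongest, the 5 narrowest, the 3 strongest in each location, the 10 strongest within 1000 bp of a protein-coding start, the strongest for each gene list, and the 5 strongest of 250 to 350 bp. Sequences shown are those of the 4 strongest with a motif, the 4 strongest without, the 3 narrowest and 2 compared peaks; peaks on chromosome 18 or touching an untranslated region were passed over. The narrow class, the gene lists and these rules were chosen with earlier results of these data known. In all, 17 other settings and 3 more chosen after seeing the data were tried: other width, promoter, motif and composition settings, other lists, a stricter discovery rate, isolated peaks, other compared widths, and like strength.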

Additional observations from a re-analysis of the deposited data

How the results depend on the processing

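The 8 shares were recomputed under 20 settings, 114 values in all, of which 88 kept their side of the threshold and did not reverse a call. Of these, 74 kept their sign and 14 had the other sign; the 14 are promoter, exon, GC-rich and CpG-rich differences that did not pass the threshold with either sign. Differences below are narrow peaks minus compared peaks, in percentage points. Weighted to the narrow peaks' strengths, the values were -1.10 for intron, 0.46 for intergenic, 0.98 for motif and -6.24 for masked repeats. With both classes within the quartiles of the narrow peaks' strength, chosen after seeing the data, they were -1.89, 2.37, -3.06 and -7.23. Against peaks of exactly 340 bp, also chosen after seeing the data, they were 0.68, 0.58, 4.43 and -7.49, with -1.83 for promoter and -1.76 for CpG-rich windows. Without those peaks the promoter difference was 1.45, and the intron, intergenic, motif and masked differences widened to 5.49, -7.06, -17.9 and 16.8. The motif difference was -15.25 with at most 1 mismatch and -2.03 with at most 3. The combined list gave -4.34 for motif and 3.39 for masked. Within 50 bp of the summit, not 150 bp, the CpG-rich difference was -2.37.

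The same widths in the pool E list gave 3.60 for promoter, 2.90 for GC-rich and 3.41 for CpG-rich, and, with the sign of the conservative list, 2.26 for intron, -16.50 for motif and 17.48 for masked. In the pool F list they gave -2.37 for promoter, -2.46 for intron, 4.64 for intergenic, 8.35 for motif, -8.72 for masked, -3.51 for GC-rich and -3.33 for CpG-rich. The fixed widths there are 360 and 304 bp, so the compared peaks of 250 to 350 bp leave out the fixed-width peaks of pool E and hold those of pool F; the cause of the changes was not tested.

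No paired analysis was possible because the technical replicates were already merged in every list. For the same reason no replicate was left out, and the single-pool lists stand in for that. The lists hold no counts, so strengths have no interval.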
